A study of Mus musculus with 20 samples.

Results

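The 42 genes described here encode the machinery that copies DNA and separates the copies in mitosis. They were taken by gene symbol from a list of known replication and mitosis genes, matched to Ensembl gene identifiers and read in every library as a measure of slowing division. The rule uses gene names and no measured value. All 42 were found among the 55573 genes of the count table, and all 42 passed the filter on low counts, the smallest value being the 42 counts of Gins1 in WT#1-4 on day 14. By role, 3 genes act in entry into S phase, 13 in origin licensing and at the replication fork, and 3 in the supply of nucleotides, and these 19 are called the replication side. Of the other 23, the mitosis side, 9 act in entry into mitosis, 5 in the spindle checkpoint and the anaphase promoting complex, 7 at kinetochores, in the chromosomal passenger complex or as spindle motors, and 2 in chromosome structure.

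mRNA libraries were prepared from total RNA of mouse iPSC lines (induced pluripotent stem cells), made by infecting fibroblasts with viruses that express Oct4, Sox2, Klf4 and c-Myc, and of embryoid bodies (EBs) grown from them. Wild type fibroblasts gave the lines WT#1-4 and WT#20D-17, and fibroblasts of Nox4-/- mice, which lack the NADPH oxidase Nox4, gave Nox4-/- #5-8 and Nox4-/- #5-23. All 4 lines carry the viral factors, were kept with LIF on fibroblast feeders stopped from dividing by mitomycin C, were aggregated without LIF in hanging drops, and were then plated on gelatin. Each line was sampled once on days 0, 3, 5, 7 and 14, which gives 20 libraries, 4 lines per day and 2 lines per genotype. The sample titles give day 14 as the last day, whereas the protocol text of the labels gives day 10, and WT#20D-17 stands in the labels but is not among the lines that the text of the study names.

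A cell that divides passes through a fixed order of steps. In G1 phase the MCM helicase is loaded on origins of replication, cyclin E and E2F transcription factors start S phase, and the helicase then opens DNA for the polymerases while ribonucleotide reductase and thymidylate synthase supply their substrates. In G2 phase cyclins A and B activate Cdk1, the chromosomes condense, the spindle checkpoint waits until every kinetochore is attached, and the anaphase promoting complex then frees the chromatids. Transcripts of the first group peak around S phase under E2F factors, and those of the second group peak in G2 and M phase under the DREAM and MuvB complexes with B-Myb and Foxm1. Pluripotent mouse cells cycle with short gap phases, and differentiating cultures are known to divide more slowly.

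Total counts per library were between 20294981 and 27708036. The targeted gene Nox4 had 0 to 2 counts in the 10 Nox4-/- libraries, 3 to 22 counts in WT#1-4 and 56 to 203 counts in WT#20D-17. The label of pluripotent cells was checked with 12 marker genes. Their summed level on day 0 was 2745 CPM in WT#20D-17, and 158, 141 and 178 CPM in WT#1-4, Nox4-/- #5-8 and Nox4-/- #5-23. In these 3 lines 5, 6 and 6 of the 12 markers were at or under 3 counts on day 0, Zfp42 had no count on any day, and Fgf4 made up most of the sum. Day 0 of these 3 lines therefore went against the label of a pluripotent culture by these markers, and the counts of members called by the day and genotype-by-day tests are also given without single lines.

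Promoter sequences are shown for 4 members of each side, because the letters they hold differ between the sides while the genes were lower together. Promoters from RefSeq of build GRCm38.p6, 250 bases before to 50 bases after the start of a gene, matched 33 of the 42 members with 34 sequences, Mcm7 having 2. Capitals mark the letters searched on both strands, which are CCAAT, the letters of the cell cycle genes homology region (CHR; TTTGAA or TTCGAA) and the E2F type letters TTTCCCGC, TTTGGCGC or TTTCGCGC. Overlapping E2F matches run together as a longer stretch of capitals. Each sequence runs 5′ to 3′ on the strand of the gene. The first 4 belong to the mitosis side, and each holds CHR letters and CCAAT. The last 4 belong to the replication side, and each holds E2F type letters, which 6 of the 16 promoters of that side held. They are examples and do not give the shares of their sides.
Cdk1, chr10:69352863-69353162, minus strand: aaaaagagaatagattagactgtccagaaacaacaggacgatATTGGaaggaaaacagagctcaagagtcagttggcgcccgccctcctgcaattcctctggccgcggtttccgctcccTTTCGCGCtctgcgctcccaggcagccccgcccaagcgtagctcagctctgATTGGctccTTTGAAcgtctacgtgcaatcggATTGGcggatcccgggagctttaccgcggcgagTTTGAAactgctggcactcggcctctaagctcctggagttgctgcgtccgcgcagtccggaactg
Ccnb2, chr9:70421505-70421804, minus strand: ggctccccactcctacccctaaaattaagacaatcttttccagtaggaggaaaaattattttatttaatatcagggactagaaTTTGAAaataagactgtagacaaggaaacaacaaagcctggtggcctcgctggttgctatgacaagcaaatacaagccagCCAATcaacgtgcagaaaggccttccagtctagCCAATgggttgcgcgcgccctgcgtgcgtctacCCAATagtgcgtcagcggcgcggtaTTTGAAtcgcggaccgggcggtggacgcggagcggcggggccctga
Plk1, chr7:122159185-122159484, plus strand: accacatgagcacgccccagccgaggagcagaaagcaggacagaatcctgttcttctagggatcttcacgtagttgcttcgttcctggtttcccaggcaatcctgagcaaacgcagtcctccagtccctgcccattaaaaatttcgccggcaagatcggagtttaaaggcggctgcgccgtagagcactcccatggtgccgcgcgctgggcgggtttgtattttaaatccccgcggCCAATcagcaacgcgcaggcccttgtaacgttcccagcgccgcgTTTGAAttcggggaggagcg
Kif11, chr19:37376132-37376431, plus strand: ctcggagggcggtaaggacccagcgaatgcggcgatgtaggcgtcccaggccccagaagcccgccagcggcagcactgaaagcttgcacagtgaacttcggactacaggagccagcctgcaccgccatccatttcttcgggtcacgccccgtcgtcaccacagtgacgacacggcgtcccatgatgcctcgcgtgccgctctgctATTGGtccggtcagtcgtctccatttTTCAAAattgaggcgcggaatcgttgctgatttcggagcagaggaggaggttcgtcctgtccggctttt
Mcm5, chr8:75109259-75109558, plus strand: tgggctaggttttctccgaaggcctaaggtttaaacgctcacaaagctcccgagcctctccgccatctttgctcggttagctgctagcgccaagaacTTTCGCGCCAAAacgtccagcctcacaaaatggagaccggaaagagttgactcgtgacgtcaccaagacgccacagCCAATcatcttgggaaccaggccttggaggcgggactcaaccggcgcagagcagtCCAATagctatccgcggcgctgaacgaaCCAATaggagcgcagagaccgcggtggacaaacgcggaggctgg
Mcm6, chr1:128359656-128359955, minus strand: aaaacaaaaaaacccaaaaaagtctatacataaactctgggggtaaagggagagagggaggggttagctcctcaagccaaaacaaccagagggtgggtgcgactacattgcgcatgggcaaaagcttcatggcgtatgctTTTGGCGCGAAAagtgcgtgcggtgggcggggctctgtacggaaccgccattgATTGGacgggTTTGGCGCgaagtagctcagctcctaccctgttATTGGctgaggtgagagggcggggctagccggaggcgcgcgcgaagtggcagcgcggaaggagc
Cdc6, chr11:98907901-98908200, plus strand: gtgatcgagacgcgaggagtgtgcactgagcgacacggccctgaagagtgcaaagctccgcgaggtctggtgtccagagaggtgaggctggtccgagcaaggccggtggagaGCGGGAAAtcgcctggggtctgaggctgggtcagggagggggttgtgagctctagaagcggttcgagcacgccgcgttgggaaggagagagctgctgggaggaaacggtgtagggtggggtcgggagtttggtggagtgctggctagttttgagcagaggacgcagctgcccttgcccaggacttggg
Cdt1, chr8:122567765-122568064, plus strand: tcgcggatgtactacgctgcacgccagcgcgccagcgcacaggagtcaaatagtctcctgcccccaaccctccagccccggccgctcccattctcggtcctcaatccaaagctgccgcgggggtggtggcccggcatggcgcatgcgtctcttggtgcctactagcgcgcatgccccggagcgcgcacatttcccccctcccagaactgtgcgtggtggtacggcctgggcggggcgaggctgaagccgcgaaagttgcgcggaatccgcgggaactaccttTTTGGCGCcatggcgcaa

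CHR letters stood in 15 of 18 promoters of the mitosis side (83.3%) and in 3 of 16 of the replication side (18.8%), beside 19.2% of all 32851 promoters. CCAAT stood in 94.4% and 68.8% of the promoters of these sides and in 37.4% of all. Each of the 15 mitosis promoters with CHR letters also held CCAAT, a pair that was present in 7.53% of all promoters. The E2F type letters showed the reverse, with 6 of 16 promoters of the replication side (37.5%), 1 of 18 of the mitosis side (5.56%), that of Cdk1, and 1.84% of all. These counts describe letters in a window of 300 bases, and neither binding nor promoter activity was measured. No promoter was matched for Aurkb, Ccna2, Ccne2, Cdc25c, Foxm1, Gins1, Gins2, Kif20a and Mcm4.

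The first question was whether transcripts of the division machinery changed over the days of EB culture. Most of the replication and mitosis genes fell from day 0 to day 14. With the line as a block, edgeR's quasi-likelihood test at an FDR under 0.01 called 38 of 42 members between day 0 and day 14. All of them were lower, where 13% of the 19240 genes tested were called lower. Without the block it called 21 members, all lower, beside 5.29% of all genes called lower. With the block all 42 fitted changes were below 0, with a median of -1.62 on the log2 scale. Of all genes 48.4% were below 0, and the median of all genes was 0.04. The 4 members not called were Ccne2, Birc5, Kif23 and Cdc25c. At an FDR under 0.05 all 42 were called lower, beside 19.7% of all genes. Over all 5 days the test of any day effect called 34 members, beside 16.4% of all genes. Without the block it called 9, beside 3.25%. Leaving out 1 line at a time, 30 members were called lower from day 0 to day 14 without WT#1-4 and 41 without WT#20D-17. Without Nox4-/- #5-8 there were 29, and without Nox4-/- #5-23 there were 24. In the same order 7.72%, 15%, 9.24% and 6.05% of all genes were called lower. The libraries were made from whole cultures, so fewer dividing cells and less of these RNAs per cell cannot be told apart.

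**Figure D1:**
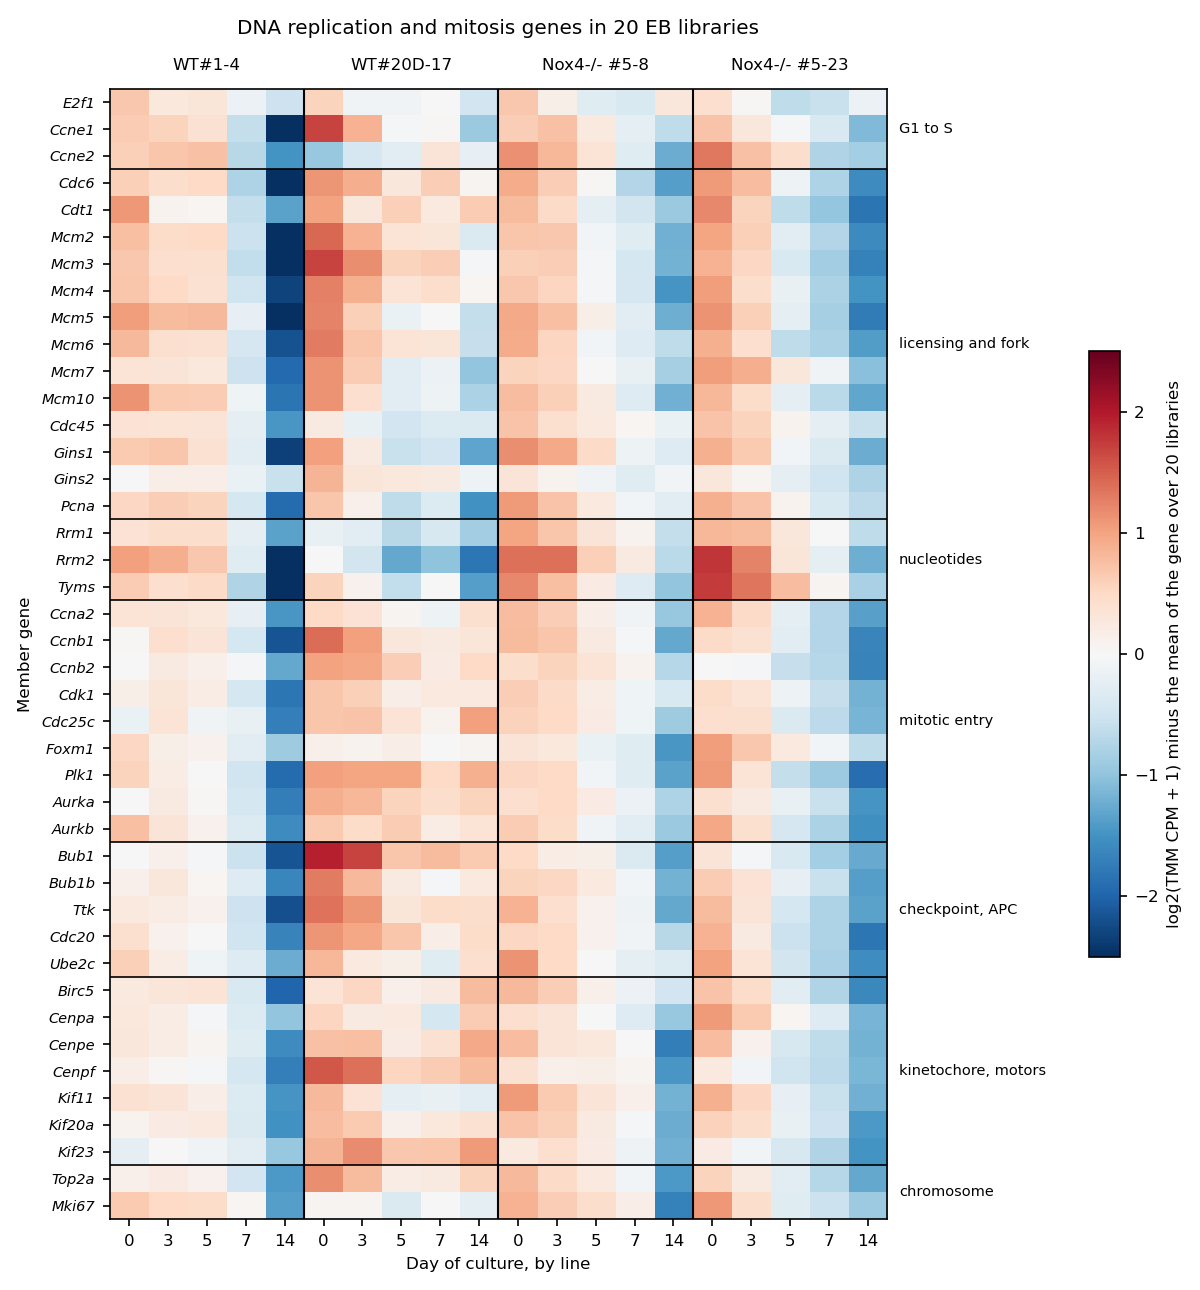
Each row is one of the 42 genes and each column one of the 20 libraries, grouped by line and ordered by day of culture; colour gives log2(TMM CPM + 1) minus the mean of that gene over the 20 libraries, and horizontal lines separate the roles. In WT#1-4 and both Nox4-/- lines most rows go from red on day 0 to blue on day 14, while in WT#20D-17 most mitosis rows are close to or above their mean on day 14.

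Without regard to the fit, every line on day 14 was below every line on day 0 for 23 of the 42 members, beside 9.25% of the genes tested. These were 18 of the 19 replication genes and 5 of the 23 mitosis genes, namely Foxm1, Aurkb, Ube2c, Kif11 and Mki67. Averaged over the members as log2(CPM + 1), the level was 7.26 ± 0.19 (SD over 4 lines) on day 0, 7.03 ± 0.10 on day 3, 6.63 ± 0.20 on day 5, 6.30 ± 0.30 on day 7 and 5.55 ± 0.75 on day 14. The spread between lines was thus widest on the last day. From day 0 to day 14 this mean was lower by 4.66-fold in WT#1-4, 1.82-fold in WT#20D-17, 3.21-fold in Nox4-/- #5-8 and 4.20-fold in Nox4-/- #5-23. At least 2-fold lower were 40, 18, 38 and 41 of the 42 members in these lines, where 15%, 15.6%, 10.5% and 9.45% of all genes tested were. In log2 units the change over the 4 lines was -1.71 ± 0.61 (SD, n = 4), and WT#20D-17 stood highest at -0.87.

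Ordered by this mean, the lowest of the 20 libraries was WT#1-4 on day 14 at 4.77, followed by Nox4-/- #5-23 at 5.29 and Nox4-/- #5-8 at 5.61 on the same day. WT#20D-17 on day 14, at 6.55, stood eighth from the bottom, between Nox4-/- #5-8 on day 7 at 6.38 and its own day 5 at 6.67. The highest were the day 0 libraries of WT#20D-17, Nox4-/- #5-23 and Nox4-/- #5-8 at 7.41, 7.37 and 7.29, which lay closer to each other than the spread of 0.19 between lines on that day. Levels per length of exon ran over a wide range on day 0, from 6.67 CPM per kilobase for Cdc25c to 207 for Pcna as means of the 4 lines.

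**Figure D2:**
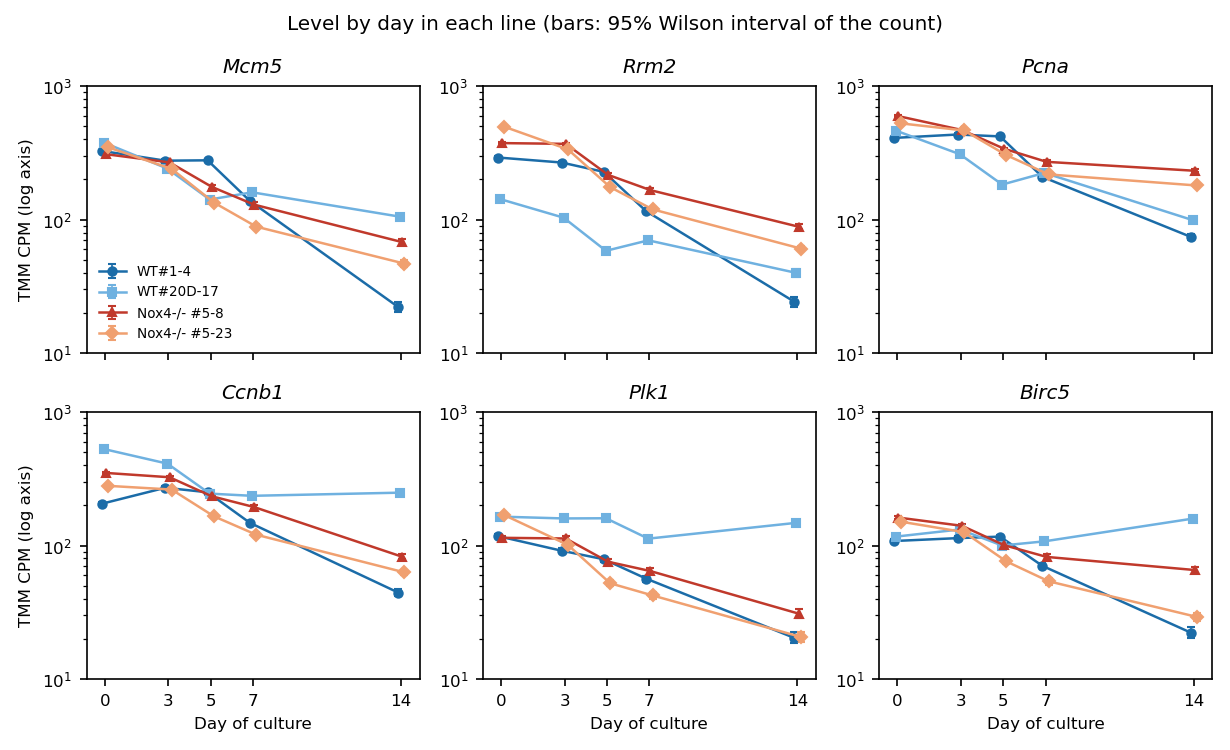
Level of 6 members in TMM CPM on a log axis against the day of culture, 1 point per library with its 95% Wilson interval, by line. Mcm5, Rrm2 and Pcna are lower on day 14 than on day 0 in all 4 lines, whereas Plk1 and Birc5 in WT#20D-17 stay near or above 100 CPM.

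The genes of S phase entry are described first. Values are CPM scaled with TMM factors, given for days 0, 3, 5, 7 and 14 in turn, changes from day 0 to day 14 are means of the 4 lines on the log2(CPM + 1) scale with the SD over lines (n = 4), and adjusted p-values come from edgeR's quasi-likelihood test over all genes. E2f1, a transcription factor that switches on genes of S phase, was at 38.6, 28.7, 29.5, 21.5 and 16.2 CPM in WT#1-4 and 35.2, 22.4, 22.5, 24.0 and 16.9 CPM in WT#20D-17. Its values were 38.4, 26.3, 19.1, 18.1 and 29.1 CPM in Nox4-/- #5-8 and 32.0, 24.3, 14.9, 15.8 and 21.5 CPM in Nox4-/- #5-23. E2f1 was lowest on day 14 in both wild type lines but on day 5 or day 7 in the Nox4-/- lines, and its change was -0.79 ± 0.38 (adjusted p = 0.00656), among the 3 smallest of the 42. Ccne1, the cyclin E that activates Cdk2, stood at 57.8, 54.1, 48.2, 24.0 and 4.60 CPM in WT#1-4 and 119.6, 67.3, 35.3, 37.5 and 18.7 CPM in WT#20D-17. Ccne1 had 56.5, 61.5, 43.5, 30.6 and 23.1 CPM in Nox4-/- #5-8 and 60.6, 44.8, 35.6, 27.8 and 16.5 CPM in Nox4-/- #5-23. The day 14 values lay between 4.60 and 23.1 CPM, all under the day 0 values, and the change was -2.27 ± 0.94 (adjusted p = 4.97e-05). Ccne2, the other cyclin E, was at 36.6, 38.7, 40.0, 14.4 and 7.77 CPM in WT#1-4 and 11.9, 17.4, 19.4, 30.1 and 20.5 CPM in WT#20D-17. In the knockout lines Ccne2 was at 53.4, 42.9, 30.5, 18.9 and 9.53 CPM in Nox4-/- #5-8 and 60.9, 40.3, 32.3, 13.7 and 12.8 CPM in Nox4-/- #5-23. WT#20D-17 was the lowest of the lines on day 0 and the highest on day 14, so that the change of -1.48 ± 1.48 was not called (adjusted p = 0.012). Its counts had decimals in all 20 libraries, which arise where RSEM divides reads between genes, and Ints8 overlaps it on the opposite strand.

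All 13 genes of origin licensing and the replication fork fell from day 0 to day 14, with a median fitted change of -2.17. Mcm5, a subunit of the MCM helicase, was at 327, 276, 278, 138 and 22.2 CPM in WT#1-4 and 377, 241, 141, 160 and 105 CPM in WT#20D-17. Mcm5 in the other genotype was at 309, 268, 176, 129 and 67.8 CPM in Nox4-/- #5-8 and 347, 239.5, 134, 88.5 and 46.8 CPM in Nox4-/- #5-23. The 4 lines began within 309 to 377 CPM and ended between 22.2 and 105 CPM, a change of -2.67 ± 0.88 (adjusted p = 2.78e-05). The other helicase subunits Mcm2, Mcm3, Mcm4, Mcm6 and Mcm7 changed by between -2.40 and -1.97, and Mcm10, which helps the helicase start, by -2.25 ± 0.49 (adjusted p = 3.1e-06). Cdc6, a loader of the helicase, was at 55.0, 48.7, 50.6, 20.4 and 5.29 CPM in WT#1-4 and 78.3, 68.0, 43.7, 55.4 and 37.8 CPM in WT#20D-17. For Cdc6 the values were 69.1, 55.3, 36.4, 21.2 and 13.2 CPM in Nox4-/- #5-8 and 75.5, 61.9, 32.6, 20.6 and 11.4 CPM in Nox4-/- #5-23. WT#1-4 had the lowest day 14 value and WT#20D-17 the highest, and the change was -2.28 ± 0.90 (adjusted p = 9.46e-05). Cdt1, its partner in loading, varied most among the 13 genes, at -1.88 ± 1.14 (adjusted p = 0.000562). It went from 102 CPM on day 0 to 78.8 CPM on day 14 in WT#20D-17, and from 117 to 13.5 CPM in Nox4-/- #5-23.

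Pcna, the sliding clamp that holds polymerases on DNA, was at 409, 433, 419, 209 and 74.3 CPM in WT#1-4 and 462, 308, 183, 224 and 99.1 CPM in WT#20D-17. Pcna was at 594, 468, 339, 270.5 and 232 CPM in Nox4-/- #5-8 and 525, 465, 304, 218 and 179.9 CPM in Nox4-/- #5-23. It had the highest level per length of the 42 genes on day 0, and its day 14 values of 74.3 to 232 CPM were all below its day 0 values, with a change of -1.89 ± 0.52 (adjusted p = 2.96e-05). Gins2, part of the active helicase with Cdc45, had the smallest change of all members, at 54.1, 60.4, 60.6, 48.0 and 36.4 CPM in WT#1-4 and 97.8, 66.7, 64.3, 62.8 and 49.0 CPM in WT#20D-17. Gins2 was at 66.8, 57.3, 50.5, 43.4 and 50.8 CPM in Nox4-/- #5-8 and 65.8, 56.4, 45.9, 37.6 and 31.1 CPM in Nox4-/- #5-23. The day 14 values reached 50.8 CPM and the day 0 values began at 54.1 CPM, so the days did not overlap, and the change of -0.75 ± 0.32 was called (adjusted p = 0.00106). Gins1, of the same complex, changed by -2.24 ± 0.62 (adjusted p = 2.39e-05), and Cdc45 by -1.14 ± 0.53 (adjusted p = 0.000882). Counts of Pcna, Gins2 and Mcm7 had decimals in 19 or 20 of the 20 libraries, and Gins2, Mcm7 and Cdc45 overlap genes on the opposite strand, with the strand setting of the counting not given in the sources used here.

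All 3 genes of nucleotide supply fell, with a median fitted change of -2.53, the lowest of the 7 roles. Tyms, thymidylate synthase, had the largest change of the 42 genes, at 72.7, 62.3, 65.1, 27.1 and 3.37 CPM in WT#1-4 and 69.0, 49.6, 29.8, 45.8 and 17.2 CPM in WT#20D-17. Tyms was at 108, 79.1, 53.9, 37.1 and 22.7 CPM in Nox4-/- #5-8 and 157, 118, 79.8, 48.8 and 26.1 CPM in Nox4-/- #5-23. WT#1-4 ended lowest, while the other lines ended between 17.2 and 26.1 CPM, and the change was -2.69 ± 0.96 (adjusted p = 5.66e-05). Rrm2, the small subunit of ribonucleotide reductase, was at 291, 267, 228, 116 and 24.2 CPM in WT#1-4 and 142, 103, 58.3, 69.9 and 39.9 CPM in WT#20D-17. Rrm2 values were 374, 369, 216, 166 and 88.4 CPM in Nox4-/- #5-8 and 495, 336, 175, 119 and 60.7 CPM in Nox4-/- #5-23. WT#20D-17 was the lowest line from day 0 to day 7, WT#1-4 was lowest on day 14, and the change was -2.60 ± 0.81 (adjusted p = 1.16e-05). Rrm1, the large subunit, changed by -1.36 ± 0.46 (adjusted p = 6.37e-05). Tyms, Mcm7 and Cenpa lie on chromosome 5, whose genes were higher in Nox4-/- #5-23 than in WT#1-4 by a median of 0.52 to 0.57 log2 units over the median of all genes on every day. Tyms was at 157 CPM on day 0 in Nox4-/- #5-23, its highest value, and the part of chromosome 5 in it was not tested.

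On the mitosis side, 8 of the 9 genes of mitotic entry were called lower, beside 13% of all genes. The median fitted change of the 9 was -1.22. Ccnb1, the main B type cyclin of mitosis, was at 206, 271, 250.5, 148 and 44.5 CPM in WT#1-4 and 528, 410.3, 245, 236 and 249 CPM in WT#20D-17. Ccnb1 in Nox4-/- cultures was at 349.5, 324, 234, 194 and 82.3 CPM in Nox4-/- #5-8 and 279.8, 262, 165, 120.5 and 63.0 CPM in Nox4-/- #5-23. WT#20D-17 had the highest value on day 0 and on day 14, where the other lines lay between 44.5 and 82.3 CPM, and the change was -1.87 ± 0.53 (adjusted p = 0.000115). Cdk1, the kinase that Ccnb1 activates, was at 189, 209, 195, 125 and 47.9 CPM in WT#1-4 and 275, 257, 190.1, 201 and 202 CPM in WT#20D-17. Cdk1 had 260, 236, 194, 159 and 129.9 CPM in Nox4-/- #5-8 and 234, 216, 156, 114 and 74.0 CPM in Nox4-/- #5-23. The 202 CPM of WT#20D-17 on day 14 was above the 189 CPM of WT#1-4 on day 0, so the days overlapped, and the change of -1.26 ± 0.68 was called (adjusted p = 0.000908). Plk1, a kinase of mitotic entry and spindle assembly, was at 118, 91.5, 78.9, 56.5 and 20.3 CPM in WT#1-4 and 165, 159.5, 160, 113 and 148 CPM in WT#20D-17. Plk1 values were 114, 113, 75.6, 64.4 and 30.9 CPM in Nox4-/- #5-8 and 169, 101, 52.2, 42.3 and 20.7 CPM in Nox4-/- #5-23. On day 14 WT#20D-17 was still at 148 CPM and the other lines lay between 20.3 and 30.9 CPM, and the change was -1.86 ± 1.23 (adjusted p = 0.000697).

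Aurkb, the kinase of the chromosomal passenger complex, was at 100.4, 74.3, 63.7, 46.4 and 19.3 CPM in WT#1-4 and 93.7, 81.8, 92.8, 67.5 and 75.3 CPM in WT#20D-17. Aurkb was at 92.1, 81.3, 55.7, 48.2 and 30.5 CPM in Nox4-/- #5-8 and 116, 77.8, 43.8, 33.5 and 19.7 CPM in Nox4-/- #5-23. The highest day 14 value, 75.3 CPM in WT#20D-17, was below the lowest day 0 value of 92.1 CPM, and the change was -1.67 ± 0.99 (adjusted p = 0.000269). Cdc25c, the phosphatase that activates Cdk1, was at 21.6, 31.0, 22.9, 21.2 and 6.68 CPM in WT#1-4 and 39.9, 40.4, 31.0, 25.9 and 50.6 CPM in WT#20D-17. Cdc25c had 36.7, 34.6, 28.2, 22.6 and 12.7 CPM in Nox4-/- #5-8 and 33.0, 32.2, 18.7, 15.1 and 10.3 CPM in Nox4-/- #5-23. Its highest value of all 20 libraries, 50.6 CPM, was that of WT#20D-17 on day 14, and the change of -1.07 ± 0.94 was not called (adjusted p = 0.0346). The remaining members of this role, Ccna2, Ccnb2, Foxm1 and Aurka, changed by between -1.46 and -1.15. Counts of Ccnb1, Ccna2, Cdc25c and Plk1 had decimals in 14 to 20 of the libraries.

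All 5 genes of the spindle checkpoint and the anaphase promoting complex fell. Cdc20, the activator of that complex, was at 169, 139, 128, 91.0 and 39.7 CPM in WT#1-4 and 277, 251, 208, 145 and 177 CPM in WT#20D-17. Cdc20 was at 185, 183, 138, 121 and 79.5 CPM in Nox4-/- #5-8 and 235, 152, 88.0, 74.8 and 36.1 CPM in Nox4-/- #5-23. WT#20D-17 went from 277 to 145 CPM by day 7 and stood at 177 CPM on day 14, and over the lines the change was -1.65 ± 0.90 (adjusted p = 0.000162). Ube2c, its ubiquitin conjugating enzyme, was at 194, 146, 119, 102 and 53.6 CPM in WT#1-4 and 229, 152, 141, 103 and 171 CPM in WT#20D-17. Ube2c values were 280.3, 180.4, 129, 109 and 100.5 CPM in Nox4-/- #5-8 and 259, 163, 93.1, 73.1 and 43.3 CPM in Nox4-/- #5-23. The days did not overlap, with 171 CPM as the highest value on day 14 and 194 CPM as the lowest on day 0, and the change was -1.57 ± 0.89 (adjusted p = 0.000447). Bub1, a checkpoint kinase, was at 69.9, 75.4, 66.9, 47.4 and 14.7 CPM in WT#1-4 and 268, 227, 112, 120.4 and 109 CPM in WT#20D-17. Bub1 had 97.7, 78.9, 76.7, 53.5 and 25.9 CPM in Nox4-/- #5-8 and 86.6, 67.7, 52.8, 37.7 and 28.5 CPM in Nox4-/- #5-23. WT#20D-17 was the highest line on every day, and the change was -1.73 ± 0.38 (adjusted p = 4.19e-05). Bub1b and Ttk, of the same checkpoint, changed by -1.64 ± 0.41 and -1.91 ± 0.68.

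Of the 7 genes of kinetochores, passenger complex and motors, 5 were called lower, beside 13% of all genes. Kif11, the motor that pushes spindle poles apart, was at 174, 167, 149.5, 104 and 47.2 CPM in WT#1-4 and 235, 171, 114, 117 and 110.5 CPM in WT#20D-17. Kif11 was at 279, 211, 167, 146 and 58.0 CPM in Nox4-/- #5-8 and 247, 189.6, 115, 89.7 and 57.5 CPM in Nox4-/- #5-23. Its day 14 values of 47.2 to 110.5 CPM lay below every day 0 value, and it changed by -1.82 ± 0.52 (adjusted p = 1.96e-05). Cenpa, the histone that marks centromeres, was at 193, 182, 156, 126 and 79.9 CPM in WT#1-4 and 231, 188, 189, 118 and 248 CPM in WT#20D-17. Cenpa values were 215, 201, 158, 129 and 83.0 CPM in Nox4-/- #5-8 and 334, 252, 166, 127 and 70.6 CPM in Nox4-/- #5-23. In WT#20D-17 it was at its lowest on day 7 and at its highest on day 14, and the change was -1.19 ± 0.96 (adjusted p = 0.00821). Birc5, survivin, was at 108, 114, 117, 70.4 and 22.3 CPM in WT#1-4 and 117, 132, 100, 108 and 159 CPM in WT#20D-17. Birc5 had 162, 140.5, 100.5, 82.2 and 65.5 CPM in Nox4-/- #5-8 and 151, 126, 76.0, 54.0 and 29.2 CPM in Nox4-/- #5-23. The day 14 value of WT#20D-17 was its highest, the other lines ended between 22.3 and 65.5 CPM, and the change of -1.35 ± 1.28 was not called (adjusted p = 0.0193).

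Kif23, a motor of cell cleavage, was at 52.7, 62.4, 58.8, 51.9 and 31.8 CPM in WT#1-4 and 113, 142, 101, 102 and 132 CPM in WT#20D-17. Kif23 was at 73.5, 83.8, 71.6, 57.3 and 26.6 CPM in Nox4-/- #5-8 and 72.0, 59.5, 47.1, 36.3 and 21.6 CPM in Nox4-/- #5-23. Its change was the smallest of the mitosis side, -0.91 ± 0.86, and was not called (adjusted p = 0.016). Cenpe, a kinetochore motor, was at 100.4, 93.3, 85.8, 66.7 and 27.1 CPM in WT#1-4 and 137, 138, 95.2, 108 and 159 CPM in WT#20D-17. Cenpe values were 141, 103, 99.1, 82.7 and 24.1 CPM in Nox4-/- #5-8 and 140.3, 88.1, 61.6, 52.1 and 35.8 CPM in Nox4-/- #5-23. It was called with a change of -1.52 ± 1.19 (adjusted p = 0.00654), although WT#20D-17 ended above its own day 0. Cenpf, a large kinetochore protein, was at 145, 133, 124, 95.5 and 39.0 CPM in WT#1-4 and 379, 336, 187, 203 and 224 CPM in WT#20D-17. Cenpf had 168, 140.4, 143, 136 and 46.4 CPM in Nox4-/- #5-8 and 154, 122, 91.1, 81.3 and 58.3 CPM in Nox4-/- #5-23. WT#20D-17 was highest throughout, and the change was -1.46 ± 0.52 (adjusted p = 0.000292). Kif20a changed by -1.48 ± 0.75 (adjusted p = 0.000609), with decimals in all 20 libraries.

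Both genes of chromosome structure fell. Top2a, the topoisomerase that untangles chromatids, was at 484, 512, 476, 317 and 164 CPM in WT#1-4 and 993, 767, 500.2, 519 and 652 CPM in WT#20D-17. Top2a was at 775, 617, 523, 420.1 and 164 CPM in Nox4-/- #5-8 and 654, 516, 361, 269 and 182 CPM in Nox4-/- #5-23. On day 14 WT#20D-17 was at 652 CPM and the other lines within 164 to 182 CPM, and the change was -1.56 ± 0.69 (adjusted p = 0.000412). Mki67, the proliferation marker Ki-67 that coats mitotic chromosomes, was at 567, 508, 501, 375 and 138 CPM in WT#1-4 and 378, 380.3, 282, 362 and 304 CPM in WT#20D-17. Mki67 values were 665, 557, 491, 408 and 112 CPM in Nox4-/- #5-8 and 766, 492, 295, 248 and 192 CPM in Nox4-/- #5-23. Its range on day 14, 112 to 304 CPM, lay below its range on day 0, 378 to 766 CPM, and the change was -1.73 ± 0.98 (adjusted p = 0.000758).

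The next question was where in the course the change fell. Against day 0, no member was called on day 3, none on day 5 and 21 were called lower on day 7, beside 0.161%, 2.29% and 4.9% of all genes. Without the line as a block the count on day 7 was 1, that of Mcm10, beside 0.431% of all genes called lower. At an unadjusted p under 0.05 the quasi-likelihood test had 4 members on day 3, 28 on day 5 and 40 on day 7 (9.52%, 66.7% and 95.2% of the 42), where 11.2%, 25.4% and 36.7% of all genes had one. DESeq2 called none on day 3. The 21 were 14 of 19 replication genes and 7 of 23 mitosis genes, with the largest fitted changes in Cdt1 at -1.57, Mcm5 at -1.47 and Rrm2 at -1.44. This count was 0 without Nox4-/- #5-8 and 0 without Nox4-/- #5-23, 13 without WT#1-4 and 32 without WT#20D-17. Of all genes 0.951%, 0.0493%, 1.69% and 6.94% were called lower in these fits. The median fitted change of the members was -1.01 in all 4 lines, -1.02 without Nox4-/- #5-8 and -0.82 without Nox4-/- #5-23. In these last fits all 42 changes were below 0, and 35 and 28 members had an unadjusted p under 0.05, beside 30.1% and 24.1% of all genes. Between neighbouring days the quasi-likelihood test called no member from day 3 to day 5 (0% of all genes), from day 5 to day 7 (0%) or from day 7 to day 14 (0.0104%). Unadjusted p-values under 0.05 were found for 2, 0 and 24 members in these steps (4.76%, 0% and 57.1%), beside 3.23%, 2.05% and 16.5% of all genes. DESeq2 called none in the first 2 of them, beside 0.026% and 0.0208% of all genes. It called Mcm7, Mcm10 and Mcm2 lower from day 7 to day 14, beside 1.1% of all genes called lower. Without the day 14 libraries the test of any day effect called 32 members, beside 11% of all genes.

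The lines took these steps at different times. The mean over the 42 genes in WT#1-4 was lower by 0.09 log2 units from day 0 to day 3 and by 0.09 from day 3 to day 5, then by 0.63 to day 7 and by 1.41 to day 14. Nox4-/- #5-23 was lower by 0.37, 0.65, 0.39 and 0.67 in the same steps, and Nox4-/- #5-8 by 0.19, 0.40, 0.31 and 0.77. WT#20D-17 was lower by 0.30 and 0.44 to day 5, was at the same mean on day 7 and was lower by 0.13 to day 14. On day 5 the 2 sides of WT#1-4 were at summed levels of 2933 and 3356 CPM, not far from 3355 and 3676 CPM on day 0, whereas Nox4-/- #5-23 had gone from 4340 and 5011 to 2124 and 2477 CPM. Each of these steps rests on 1 library per line and day, and whether the timing differs between genotypes is tested further on.

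**Figure D3:**
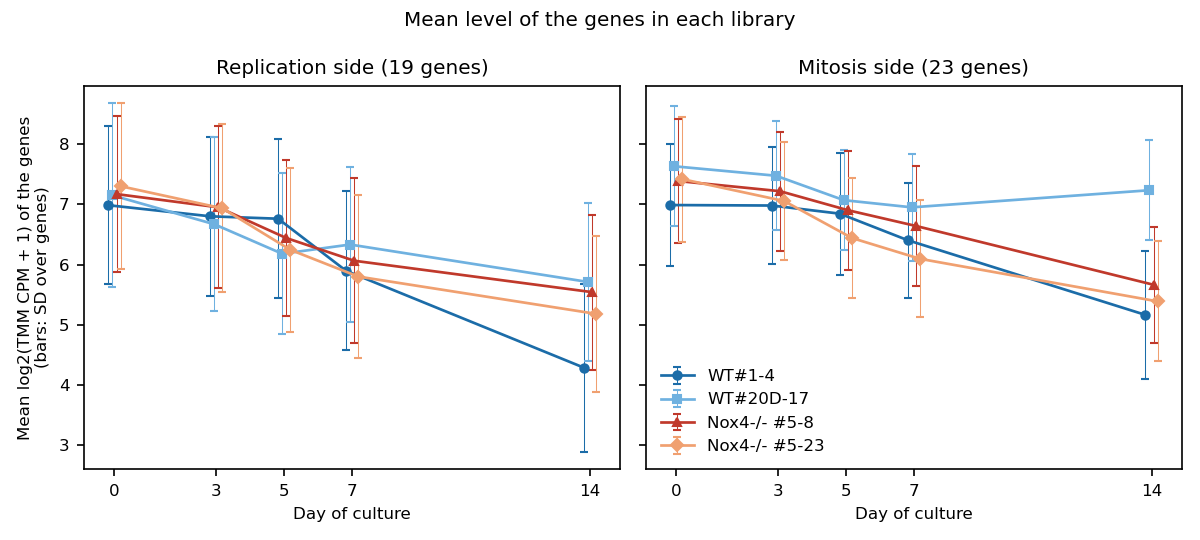
Mean of log2(TMM CPM + 1) over the 19 replication genes (left) and the 23 mitosis genes (right) against the day of culture, 1 point per library and line, with bars for the SD over genes. On the left all 4 lines end below 6, and on the right WT#20D-17 ends at 7.23 while the other 3 lines end at 5.16 to 5.66.

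The replication and mitosis sides parted in WT#20D-17. From day 0 to day 14 its replication genes were lower by 1.44 log2 units on average and its mitosis genes by 0.40, and from day 7 to day 14 the replication genes were lower by 0.62 while the mitosis genes were higher by 0.28. In that last step 19 of its 23 mitosis genes and 1 of its 19 replication genes were higher, where 42.3% of all genes tested were. The counts of 15 mitosis genes lay above those of day 7 beyond their 95% Wilson intervals, which cover counting error only, and those of 2 lay below. The share of all genes outside such intervals was not counted, so the 15 are not set apart from other genes by this. In WT#1-4, Nox4-/- #5-8 and Nox4-/- #5-23 the mitosis genes higher on day 14 than on day 7 numbered 0, 0 and 0, and the replication genes 0, 2 and 1, where 43.3%, 47.3% and 46.3% of all genes were. The members higher on day 14 than on day 0 in WT#20D-17 were Ccne2, Birc5, Cdc25c, Kif23, Cenpe and Cenpa, by 0.74, 0.44, 0.34, 0.22, 0.22 and 0.10 log2 units. With 1 library per line and day, no test of this difference between lines was made.

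Subtracting the mean of the mitosis genes from that of the replication genes gave -0.48 in WT#20D-17 on day 0 and -1.52 on day 14. On the same days the difference was -0.003 and -0.88 in WT#1-4. It was -0.22 and -0.12 in Nox4-/- #5-8, and -0.12 and -0.21 in Nox4-/- #5-23. On day 7 it was -0.51 in WT#1-4, -0.62 in WT#20D-17, -0.58 in Nox4-/- #5-8 and -0.30 in Nox4-/- #5-23. From day 0 to day 14 the replication side was lowered more than the mitosis side in both wild type lines, by 2.70 and 1.82 log2 units in WT#1-4. In Nox4-/- #5-8 the sides were lower by 1.63 and 1.72, and in Nox4-/- #5-23 by 2.12 and 2.03. Marker genes of other cell types moved with the line WT#20D-17. Its summed level of 7 endoderm markers was 48.4 CPM on day 0 and 1136 CPM on day 14, with none at or under 3 counts on day 14, and that of 9 mesoderm and muscle markers was 113 and 1351 CPM. The endoderm sum was at most 3.22 CPM in the other 3 lines and the mesoderm sum at most 78.0 CPM. The sum of 15 fibroblast markers was between 635 and 5616 CPM in WT#20D-17, between 1819 and 4017 CPM in WT#1-4 and between 703 and 3319 CPM in the Nox4-/- lines, and Fn1, which encodes fibronectin, made up most of it in WT#1-4 and the Nox4-/- lines. Without Fn1 the sum of the other 14 went from 509.2 CPM on day 0 to 301.7 CPM on day 14 in WT#1-4 and from 40.97 to 3249 CPM in WT#20D-17. Nox4-/- #5-8 had 80.55 and 380.4 CPM on these days for the same 14 markers, and Nox4-/- #5-23 had 65.28 and 125.6 CPM. Summed neural markers were between 323 and 542 CPM in WT#1-4 and between 39.6 and 186 CPM elsewhere, and those of blood and endothelium between 15.5 and 130 CPM over all libraries. Between day 0 and day 14 the quasi-likelihood test called 3 pluripotency markers lower and 1 higher, 4 endoderm, 4 mesoderm and muscle, 2 fibroblast and 1 blood and endothelium markers higher, and 2 neural markers lower, where 13.6% of all genes were called higher and 13% lower. The part of these cell types in the levels of the 42 genes was not tested.

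**Figure D4:**
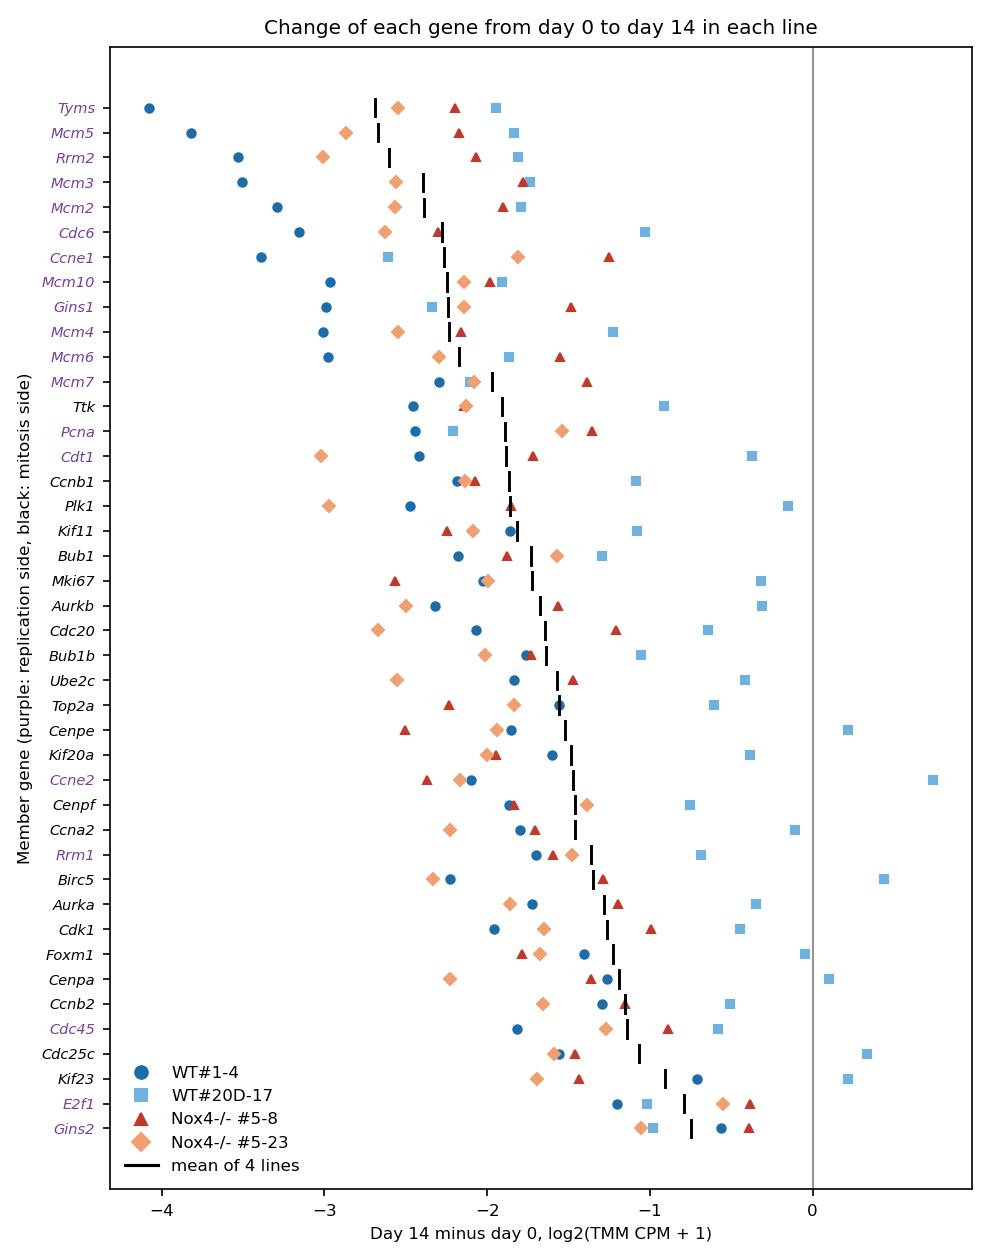
Change from day 0 to day 14 on the log2(TMM CPM + 1) scale for each of the 42 genes, ordered by the mean of the 4 lines (black bars), with 1 point per line. The points of WT#1-4 lie furthest left for the replication genes at the top, and those of WT#20D-17 lie apart to the right for most mitosis genes, with 6 genes above 0.

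Whether the course depended on Nox4 was asked with genotype-specific day terms over the 4 lines. Within the wild type lines 15 members were called lower from day 0 to day 14, beside 7.08% of all genes. Within the Nox4-/- lines 34 members were called lower, beside 5.02%. All 42 fitted changes were below 0 in each genotype. The 15 were 13 replication genes and 2 mitosis genes, Kif11 and Bub1, and the 34 were 14 replication genes and 20 mitosis genes. Median fitted changes of the mitosis genes were -0.96 and -2.01, and those of the replication genes -2.27 and -2.13. The difference itself did not pass the test, since no member was called for the day 14 change between genotypes (0.0156% of all genes were). At an unadjusted p under 0.05 there were 9 members (21.4%), near the 18% of all genes, so the count does not set the members apart. Of these 8 were on the mitosis side, led by Kif23 (adjusted p = 0.101) and Cenpa (adjusted p = 0.166), neither of them called. The fitted change of Kif23 was -0.15 within the wild type and -1.65 within the Nox4-/- lines, and that of Cenpa -0.42 and -1.85. Without the line as a block, 5 and 0 members were called within the 2 genotypes, beside 1.56% and 0.0832% of all genes called lower. These fits take the 2 lines of a genotype as its replicates, and the wild type lines ended far apart.

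With 1 line left out, the line left alone in its genotype is assumed to vary like the others. Without WT#1-4 the test of the difference called 11 members, each with a more negative change in the Nox4-/- lines, beside 8.58% of all genes. These were 9 mitosis genes and 2 replication genes, led by Ccne2 with a difference of -3.16 (adjusted p = 0.00117) and Cdc25c with -1.97 (adjusted p = 0.00438). Without WT#20D-17, or without either knockout line, it called none. Within the wild type the median fitted change of the members was -0.73 with WT#20D-17 alone and -2.08 with WT#1-4 alone. Within the Nox4-/- lines it was -2.01 without WT#1-4 and -2.02 without WT#20D-17. With Nox4-/- #5-23 alone it was -2.17, and with Nox4-/- #5-8 alone it was -1.76.

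No member was called for the interaction of genotype with all days, where 0.0104% of all genes were called. The quasi-likelihood test gave an unadjusted p under 0.05 for 2 members (4.76%, beside 7.24% of all genes), Kif23 and E2f1, whose adjusted p-values were 0.582 and 0.59. DESeq2's likelihood ratio test called E2f1 (adjusted p = 0.00745), beside 0.998% of all genes. Without WT#1-4 the quasi-likelihood test called Ccne2 (adjusted p = 0.00432), beside 3.34% of all genes. E2f1 was lower on day 14 than on day 7 in both wild type lines, at 16.2 after 21.5 CPM in WT#1-4 and at 16.9 after 24.0 CPM in WT#20D-17. It was higher on day 14 in both knockout lines, at 29.1 after 18.1 CPM in Nox4-/- #5-8 and at 21.5 after 15.8 CPM in Nox4-/- #5-23.

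Pooling all days, as in the design of the study, edgeR's exact test compared the 5 libraries of WT#1-4 with the 10 Nox4-/- libraries. It called no member, beside 5.62% of 33860 genes, with no member at an unadjusted p under 0.05 and none called by DESeq2. Fitted differences of the members were between -0.30 for Mcm10 and 0.66 for Tyms, Nox4-/- minus wild type, with a median of 0.16. A quasi-likelihood test with the day as a covariate called Tyms alone, higher in Nox4-/- by 0.87 (adjusted p = 0.0035). Set against WT#20D-17 as the wild type, the exact test called 4 members, beside 25.9% of all genes. Bub1, Cenpf and Kif23 were lower in the Nox4-/- lines, by -1.49, -1.24 and -1.13 log2 units (adjusted p = 1.51e-05, 7.39e-05 and 0.000272), and Rrm2 was higher by 1.51 (adjusted p = 0.00473). Days of one line are not independent replicates, so these p-values cannot be taken as a test between lines. The exact test also has no term for the day, so the fall of the members over the days enters its spread. Whether its p-values come out too small or too large for the members was not tested.

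With the counts of each line summed over its days, 2 lines per genotype, the quasi-likelihood test called no member, no gene at all (0%), and no member reached an unadjusted p under 0.05. DESeq2 called no member on these sums either. Fitted differences were between -0.88 for Bub1 and 0.82 for Rrm2.

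Other genes of the same pathways, from fixed lists, moved with the members from day 0 to day 14. In this contrast 13% of all genes were called lower and 13.6% higher. Of 42 further replication genes 39 were called lower and none higher, with a median fitted change of -1.67. The polymerase genes Pole at -2.64, Pole2 at -2.63 and Pola1 at -2.53 led them. Of 54 further mitosis genes 46 were called lower and none higher, with a median of -1.32. The centromere and kinetochore genes Cenpm at -2.06, Knl1 at -1.89 and Spc24 at -1.83 led them. Among 21 transcriptional regulators of these genes 13 were called lower and none higher. The largest falls were those of E2f8 at -2.54 and E2f7 at -2.46, repressors of the E2F family, and of Mybl2, which encodes B-Myb, at -1.94. Mybl2 had 106, 69.4, 69.3, 31.1 and 7.22 CPM in WT#1-4 and 467, 186, 149.8, 110.3 and 371 CPM in WT#20D-17. It had 118, 96.1, 58.3, 43.5 and 25.2 CPM in Nox4-/- #5-8 and 153, 82.2, 42.3, 33.0 and 16.3 CPM in Nox4-/- #5-23. In WT#20D-17 Mybl2 was lowest on day 7 and higher on day 14, still below its day 0.

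The D cyclins, their kinases and the inhibitors of cyclin-dependent kinases went the other way in part. Of 13 genes 2 were called lower, Cdk4 by 0.95 and Cdk2 by 0.92 log2 units, beside 13% of all genes. In the same test 7 were called higher, beside 13.6% of all genes. Among them were Ccnd2 by 3.87, Cdkn2b by 1.92 and Cdkn2d by 1.69. The other 4 called higher were Ccnd3, Cdkn1b, Cdkn2a and Cdkn1a. Ccnd2, a D cyclin, was at 60.6, 134, 193, 233 and 411 CPM in WT#1-4 and 2.97, 18.4, 85.8, 103 and 133 CPM in WT#20D-17. In the other genotype Ccnd2 was at 18.3, 69.2, 99.7, 142 and 199 CPM in Nox4-/- #5-8 and 16.9, 63.5, 179, 215 and 393 CPM in Nox4-/- #5-23. Every line on day 14 was above every line on day 0. Cdkn1a and Cdkn2a are described further after their values were seen. Cdkn1a, the inhibitor p21, was at 384, 347, 366, 474 and 911 CPM in WT#1-4 and 75.1, 99.8, 128, 109.5 and 209.5 CPM in WT#20D-17. Cdkn1a had 193, 200.2, 221, 248 and 381 CPM in Nox4-/- #5-8 and 229.6, 214, 274, 269 and 270.1 CPM in Nox4-/- #5-23. WT#1-4, the line with the lowest level of the 42 genes on day 14, had the highest Cdkn1a on every day. WT#20D-17, with the highest level of the 42 genes on day 14, had the lowest Cdkn1a on every day. The Nox4-/- lines went the other way on day 14, as Nox4-/- #5-8 had more Cdkn1a and also the higher mean, 5.61 against 5.29 in Nox4-/- #5-23. A link between Cdkn1a and the 42 genes was not tested. Across lines Cdkn2a, the locus of p16 and p19Arf, was between 99.1 and 320 CPM in WT#1-4 and the Nox4-/- lines and between 2.24 and 13.6 CPM in WT#20D-17.

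Outside all lists, the genes whose log2(CPM + 1) followed the mean of the 42 members most closely over the 20 libraries were Wdr76, Fbxo5, Zwilch, Rad54l and Nup107, with Pearson correlations of 0.99, 0.99, 0.98, 0.98 and 0.98. The 20 points share lines and days and are not independent, and the correlations are given as a description.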

How the data were processed

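The members, the other gene lists and the tests were chosen with earlier results of these data known. The authors sequenced paired ends of mRNA libraries, prepared from total RNA with the stranded TruSeq mRNA kit, aligned them with STAR 2.6.0c and deposited RSEM 1.3.1 expected counts per gene for all 20 libraries, in which 9.92% of values had decimals. The strand setting of RSEM is not given in the sources used here. Of 55573 gene identifiers 55480 matched the GENCODE annotation of GRCm38.

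The expected counts were rounded to whole numbers, scaled with TMM factors and filtered with filterByExpr by genotype and day, leaving 19240 genes. Day effects were tested with edgeR 4.0.16 (limma 3.58.1, R 4.3.3), quasi-likelihood, with the line as a term, since the same line was sampled on every day according to the labels. Deviations from the mean of a genotype and day correlated between days of 1 line with r of 0.40 to 0.92 over 20 pairs of days. Genotypes were compared with genotype-specific day terms, with the exact test on pooled days that the study used (33860 genes with a count), and on sums per line (20230 genes). Calls had a Benjamini-Hochberg FDR under 0.01. Nothing in the labels says that days of a line came from separate cultures. The p-values of the day tests, with the line as a term, measure how far the changes over the days differ between lines. Those on sums per line measure the spread between lines. Those of the exact test measure the spread of libraries pooled over lines and days. Values per library are TMM CPM, and log2 values have 1 CPM added. Intervals are 95% Wilson intervals of the counts and cover counting error only, and markers were counted as undetected at or under 3 counts. The exact letters of motifs were searched on both strands.

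Full values are given for a representative of each role, the 3 members with the largest and the 3 with the smallest change, those moving against the majority in any line and those called in a genotype test. From the other lists, counts and the 3 largest rises and falls are given, and outside the lists the 5 genes most correlated with the member mean. Alternatives were upper quartile and DESeq2 1.42.0 normalization and tests, no filter, an FDR under 0.05, no line term, and each line left out. The scripts were tested on simulated data.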

Additional observations from a re-analysis of the deposited data

Results flagged for a closer look

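In the change from day 0 to day 14 on the log2(CPM + 1) scale, WT#20D-17 stood apart from the other 3 lines for 3 of the 42 members by Dixon's criterion for 4 values, which by chance marks about 1 group in 20. For Ccne2 it was at 0.739, against -2.10 in WT#1-4, -2.37 in Nox4-/- #5-8 and -2.17 in Nox4-/- #5-23. In the same order of lines, for Ccnb1 it was at -1.082, against -2.18, -2.07 and -2.14. For Cdc25c it was at 0.336, against -1.56, -1.46 and -1.59.

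Over the 42 members, 6 changes between neighbouring days had both wild type lines moving one way and both Nox4-/- lines the other. They numbered 3 from day 0 to day 3, 2 to day 5, 0 to day 7 and 1 to day 14. How often this occurs among all genes was not counted, and these differences were not tested on their own. From day 0 to day 3 the mean of the Nox4-/- lines minus that of the wild type lines was -0.742 for Ccne2, -0.317 for Cdc25c and -0.355 for Birc5. From day 3 to day 5 it was -0.575 for E2f1 and -0.488 for Ccne2, and from day 7 to day 14 it was 0.973 for E2f1. The E2f1 change in that last step was -0.39 and -0.48 in the wild type lines and 0.66 and 0.42 in the Nox4-/- lines.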

How the results depend on the processing

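Leaving out the line as a replicate block lowered the members called to 9 for the day effect, beside 3.25% of all genes. For day 14 against day 0 it left 21, all lower, beside 5.29% of all genes called lower. For day 7 against day 0 it left 1, Mcm10, beside 0.431%. Within the wild type lines it left 5 (Pcna, Mcm10, Mcm7, Gins1 and Ccne1), beside 1.56%. Within the Nox4-/- lines it left 0, beside 0.0832%. There 40 had an unadjusted p under 0.05 (95.2%, beside 21.3% of all genes). It changed none of the other counts of calls by the day and interaction tests. Leaving out 1 line at a time gave 4 members for the day effect without Nox4-/- #5-23 and 10 without Nox4-/- #5-8. It gave 19 without WT#1-4 and 40 without WT#20D-17. Of all genes 3.01%, 4.8%, 7.02% and 21.4% were called in these fits. Over the left-out lines, 24 to 41 members were called for day 14 against day 0. For day 7 and day 5 against day 0 there were 0 to 32 and 0 to 3. Within and between genotypes a left-out line leaves 1 line alone, so medians of the fitted changes of the members are given. They were -2.08 to -0.73 within the wild type lines and -2.17 to -1.76 within the Nox4-/- lines. The median difference between genotypes was -1.08 to 0.15, with -1.08 without WT#1-4. At an FDR under 0.05 there were 34 members for day 7 against day 0, 8 for day 5 against day 0 and 26 within the wild type lines. Of all genes 11.2%, 3.02% and 14.4% were called lower there. DESeq2 called 3 members from day 7 to day 14 and 1 for the interaction, beside 1.89% and 0.998% of all genes. The exact test called 4 members with WT#20D-17 as the wild type, and the quasi-likelihood test with day as a covariate called 1. Of all genes 25.9% and 8.11% were called in these 2 tests. The causes were not tested.

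Day 14 against day 0 gave 37 to 40 members lower under upper quartile, DESeq2 size factors, DESeq2, no filter and genotype-by-day terms. Of 462 values of single members under 11 settings, 399 kept their direction and side of the threshold, 51 lost the call, 12 gained it and 0 reversed. The mean change of each line moved by less than the 0.605 between lines under each scaling and pseudocount. No member had a library under 10 counts, so that alternative left all 42. The contrasts of days 5 and 7 with day 0, the fit without day 14 libraries, and the left-out lines within genotypes and for their difference, were chosen after seeing the data. With 1 library per line and day and 2 lines per genotype, differences between single lines have no test.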
